A study of Mus musculus with 2 samples.

Results

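Horizontal cells, the inhibitory interneurons of the outer retina, were 63 of the 12936 cells that passed the cell filter in the 2 libraries of this series. They were picked from their own counts. A cell needed at least 5000 UMIs (unique molecular identifiers, each a tag of 1 captured transcript) and at least 4 UMIs of the transcription factors Lhx1, Onecut1 and Onecut2 together. At least 2 of these factors had to be detected, with at least 2 UMIs of Lhx1 or of Onecut1, and the ganglion cell genes could have at most 1 UMI of Slc17a6 and 1 UMI over Pou4f1, Pou4f2 and Pou4f3. The control library held 23 such cells among 8274 kept and the knockout library 40 among 4662. The control mice were Atg5fl/fl, with floxed Atg5 (a gene of autophagosome formation) and no Cre. The knockout mice were GLAST-CreER; Atg5fl/fl, in which the GLAST promoter drives an inducible Cre in Müller glia. Eyes of both groups had received 0.5 µg of lipopolysaccharide (LPS, a bacterial coat component that sets off inflammation) in the vitreous. Only the knockout group had been given 4-hydroxy-tamoxifen, so genotype, Cre and drug cannot be told apart. Each group was 1 library from pooled retinas (n = 6 per the labels), so no difference below has a replicate check and none was tested. No source used here gave age, sex or the time from injection to harvest.

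Horizontal cells sit at the outer edge of the inner nuclear layer, where their processes meet the terminals of rods and cones. They receive glutamate from photoreceptors and feed inhibition back to them, which shapes contrast and adaptation to light. They are coupled to one another by gap junctions, and their identity is set during development by Foxn4, Ptf1a, the Onecut factors, Prox1 and Lhx1.

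The members were deep, at a median of 43377 UMIs per control member (range 5299 to 68297) and 34004.5 per knockout member (7412 to 60931). Their summed counts were 884333 and 1378687 UMIs. Levels below are counts per 1000000 UMIs of these sums (CPM), control before knockout, and intervals on levels (exact Poisson) and on knockout over control ratios (exact conditional binomial) are 95% intervals that cover counting error only. A 3' library counts 1 tag per transcript whatever its length. Members were 0.278% of kept control cells (exact binomial 95% interval 0.176 to 0.417%) and 0.858% of kept knockout cells (0.614 to 1.17%). Per 100 amacrine cells, found by a like rule on Tfap2 genes, there were 6.67 and 7.34 members. The share of all kept cells also follows how many shallow cells were kept, and kept cells had a median of 1396 UMIs (control) and 6808 UMIs (knockout). Mitochondrial transcripts made up a median of 6.95% and 8.19% of a member's UMIs, against 2.39% and 2.52% in amacrine cells. In each library 1 cell with 3 UMIs of the factors lay just outside the rule, and the lowest sums among members were 4 (control) and 5 (knockout). The libraries had 15 barcodes in common, 1 of them carried by a member.

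Lhx1, Onecut1 and Onecut2 served in the rule, so only the other given markers could check the label. Of these, Calb1 and Slc4a3 were far higher than in amacrine cells. Calb1, the calcium buffer calbindin, stood at 2266 and 1990 CPM, against 69.1 and 56.8 CPM in amacrine cells. Slc4a3, an anion exchanger that moves chloride and bicarbonate, stood at 1908 and 1872 CPM, against 83.4 and 74.5 in amacrine cells. The exception was Tnfrsf21 (death receptor 6), which had 0 UMIs in the control members, a count that allows up to 3 UMIs, and 3 UMIs in the knockout members. Müller cells, chosen by Rlbp1, held 35.5 and 46.0 CPM of Tnfrsf21.

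A small group of members went against the name. The rule lets a cell in with no Lhx1, and 7 members (2 control, 5 knockout) had no Lhx1 UMI. These members were shallow, at 5299 and 11337 UMIs (control) and 9564 to 20612 UMIs (knockout). Both control cells and 3 of the knockout cells also held Slc6a9, the glycine transporter of glycinergic amacrine cells, at 5 and 14 UMIs (control) and 9 to 26 UMIs (knockout), with Prox1, Tfap2b and at most 1 UMI of Slc4a3. In members with Lhx1, Slc6a9 reached at most 1 UMI (control) or 3 UMIs (knockout). Another knockout member without Lhx1 had 7 UMIs of Trpm1, which marks bipolar cells, and the last had no Calb1. A pair of knockout members with Lhx1 held 16 and 25 UMIs of Trpm1, which no control member showed. Some counts below are therefore also given without the 7 cells, and others may change without them too.

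**Figure D1:**
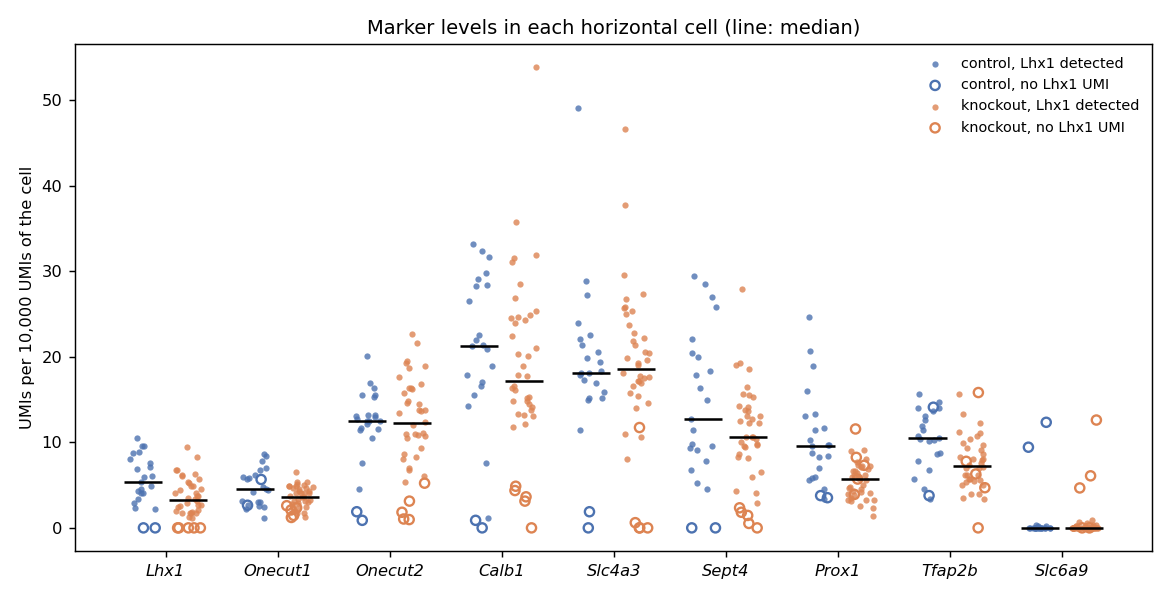
UMIs per 10,000 UMIs of each horizontal cell for 9 genes, with control members in blue, knockout members in orange, members without an Lhx1 UMI as open circles and a line at each library's median. The 7 open circles are low for Calb1 and Sept4, and 5 of them lie above every filled circle for Slc6a9.

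Genes that set horizontal cells apart from amacrine, ganglion and Müller cells were sought in both libraries. Rods, cones, bipolar cells and further classes were not compared, so a gene counted here may be high in those. A gene was counted where its level was at least 5-fold that of amacrine, ganglion and Müller cells alike, in each library. Of 4321 genes with at least 100 UMIs in the members, the 3 rule genes left out, 82 (1.90%) met this. The members were chosen from 3 genes and the rest of the profile is a description of the chosen cells. Onecut3, the third member of the Onecut family and no part of the rule, stood at 262 and 217 CPM and at or under 0.75 CPM in each of the other classes. Lhx1os, read from the locus next to Lhx1, stood at 278 and 249 CPM. Tecrl, an enzyme-like gene better known from heart muscle, stood at 283 and 242 CPM, against at most 1.74 CPM in the other classes.

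Apart from Wnk4 and Slc4a5, the genes of chloride and bicarbonate transport named here were picked after their values were seen, and of the fixed list for pH and ion transport 2 genes, Slc4a3 and Slc12a2, were among the 82. Wnk4, a kinase that regulates cation-chloride cotransport, stood at 182 and 136 CPM, and Slc4a5, a sodium bicarbonate cotransporter, at 410 and 362 CPM. The cotransporter Slc12a2, which loads cells with chloride, stood at 622 and 554 CPM, against 39.0 and 36.8 CPM in amacrine cells. Its counterpart Slc12a5, which extrudes chloride in most mature neurons, stood at 254 and 211 CPM in horizontal cells and at 460 and 416 CPM in amacrine cells. Slc12a2 was thus higher and Slc12a5 lower in horizontal than in amacrine cells of both libraries. Slc12a7, a potassium chloride cotransporter, stood at 128 and 165 CPM, and Bsnd, a subunit of ClC-K chloride channels, had 39 and 62 UMIs, with none in the other 3 classes.

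The cytoskeletal genes Tpm3, Tmod1 and Sept4 were among the 82, as was Utrn, which was picked after its values were seen. Tpm3, a tropomyosin that binds actin filaments, was the most abundant of the 15 genes with the highest enrichment, at 4640 and 4557 CPM against at most 192 CPM in the other classes. Tmod1, which caps actin filaments, stood at 390 and 413 CPM, Utrn (utrophin) at 1756 and 1839 CPM, and the septin gene Sept4 at 1613 and 1111 CPM. Among receptors, Adra2a, the alpha-2A adrenergic receptor, stood at 372 and 299 CPM against 1.97 and 1.74 CPM in amacrine cells. Megf11, which is known for the even spacing of horizontal cells, stood at 639 and 519 CPM, and its relative Megf10 at 85.9 and 103 CPM. Tnr, the matrix protein tenascin-R, stood at 2800 and 2209 CPM.

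**Figure D2:**
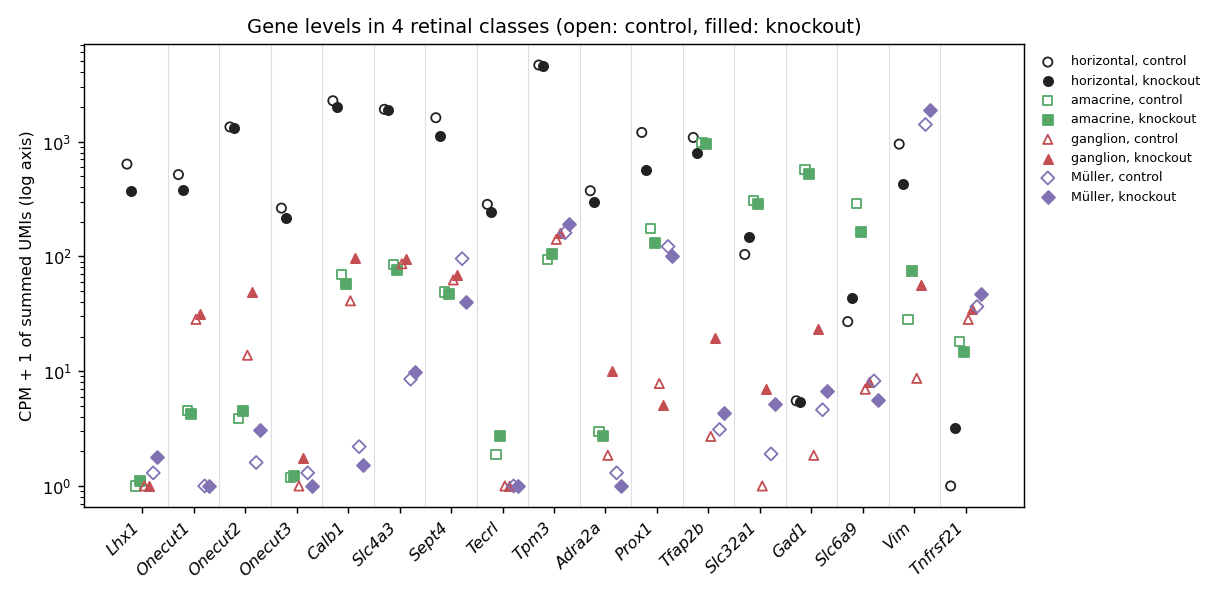
Level of 17 genes (CPM + 1 of summed UMIs, log axis) in horizontal, amacrine, ganglion and Müller cells of the control (open) and knockout (filled) library. Onecut3, Calb1, Slc4a3 and Tpm3 lie far above the other classes in both libraries. Lhx1 does too, but it was used to choose the cells, so its gap was set by the rule. Gad1 lies near 5 CPM in horizontal cells and above 500 CPM in amacrine cells.

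The transmitter genes were sparse. Gad1, which makes GABA, had 4 and 6 UMIs (4.52 and 4.35 CPM) in horizontal cells, against 570 and 518 CPM in amacrine cells, and Gad2 had 1 UMI in each library. Slc32a1, the vesicular transporter for GABA and glycine, was present at 103 and 147 CPM, with a knockout over control ratio of 1.42 (1.11 to 1.84), against 307 and 286 CPM in amacrine cells. Gja10, the connexin of horizontal cell gap junctions, had 10 and 16 UMIs (11.3 and 11.6 CPM), and the amacrine and ganglion cells of either library had none. Gria4, an AMPA receptor subunit through which glutamate acts, was the most abundant of the glutamate receptor genes at 1061 and 831 CPM. Of 9 measured genes for glutamate receptors and 7 for GABA and glycine receptors, 0 differed by 1.5-fold or more between libraries. Over all 4324 genes with at least 100 UMIs only 6.36% did, so 0 among so few says little.

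Short promoter windows of the enriched genes were searched for the core of the Onecut site and of a LIM-homeodomain site, because both families define these cells. The windows were the 250 bases before each start in RefSeq (GRCm38.p6), for the 82 genes and the 3 rule genes, of which 54 had an entry. ATCAAT or ATCGAT, on either strand, was in a window of 5 of the 54 genes (9.26%), and in 8.48% of 27025 genes. TAATTA, its own reverse complement, was in 4 of 54 (7.41%), against 5.65% of all. These shares lay close to those of all genes, and a match is a description and not a site of binding. The windows of Tpm3 (chr3:90072401-90072650, plus strand), Arhgap15 (chr2:43748574-43748823, plus strand) and Lmo1 (chr7:109175208-109175457, minus strand) are shown as examples, with matches in capitals. They were chosen because Tpm3 was the most abundant of the 15 most enriched genes, Arhgap15 differed between the libraries and Lmo1 held matches of both kinds.
Tpm3: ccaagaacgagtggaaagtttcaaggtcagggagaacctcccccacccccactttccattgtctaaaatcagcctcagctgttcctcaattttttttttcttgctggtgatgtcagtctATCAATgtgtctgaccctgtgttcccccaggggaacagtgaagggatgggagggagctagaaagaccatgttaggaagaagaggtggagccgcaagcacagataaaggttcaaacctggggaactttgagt
Arhgap15: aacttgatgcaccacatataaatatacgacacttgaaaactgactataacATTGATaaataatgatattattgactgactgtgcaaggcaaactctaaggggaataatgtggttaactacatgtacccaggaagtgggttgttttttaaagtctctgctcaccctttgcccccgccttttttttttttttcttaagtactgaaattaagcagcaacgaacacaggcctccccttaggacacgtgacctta
Lmo1: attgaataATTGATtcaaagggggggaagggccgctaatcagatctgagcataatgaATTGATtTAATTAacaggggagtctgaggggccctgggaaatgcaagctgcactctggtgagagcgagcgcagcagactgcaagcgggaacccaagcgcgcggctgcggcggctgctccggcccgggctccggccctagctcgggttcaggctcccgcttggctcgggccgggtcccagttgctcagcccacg
Lmo1, a LIM-only cofactor, stood at 406 and 337 CPM in horizontal cells and at most at 63.4 CPM in the other classes.

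The second question was how horizontal cells differed between the libraries. Of 4324 genes with at least 100 UMIs, 275 (6.36%) differed by at least 1.5-fold, 183 (4.23%) higher and 92 (2.13%) lower in the knockout library, and the median log2 ratio over all was 0.01. Thus most genes had nearly the same level. The same measure gave 4.76% higher and 2.40% lower in amacrine cells, 6.05% and 3.76% in ganglion cells and 5.41% and 16.9% in Müller cells. The genes that were higher in the knockout library included the metallothioneins Mt1 and Mt2, Nupr1, Npy and Slc3a2. Those that were lower included Prox1, Vim, Ryr3, Thsd7b and Arhgap15. Among 340 measured genes of the 31 lists, 41 were higher and 8 lower, but the lists were chosen with results of these data known, and without the 5 knockout members with the highest doublet scores 24 were higher and 9 lower. Without the members that lacked Lhx1, 161 of all genes were higher and 92 lower, with 31 and 8 among list genes.

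**Figure D3:**
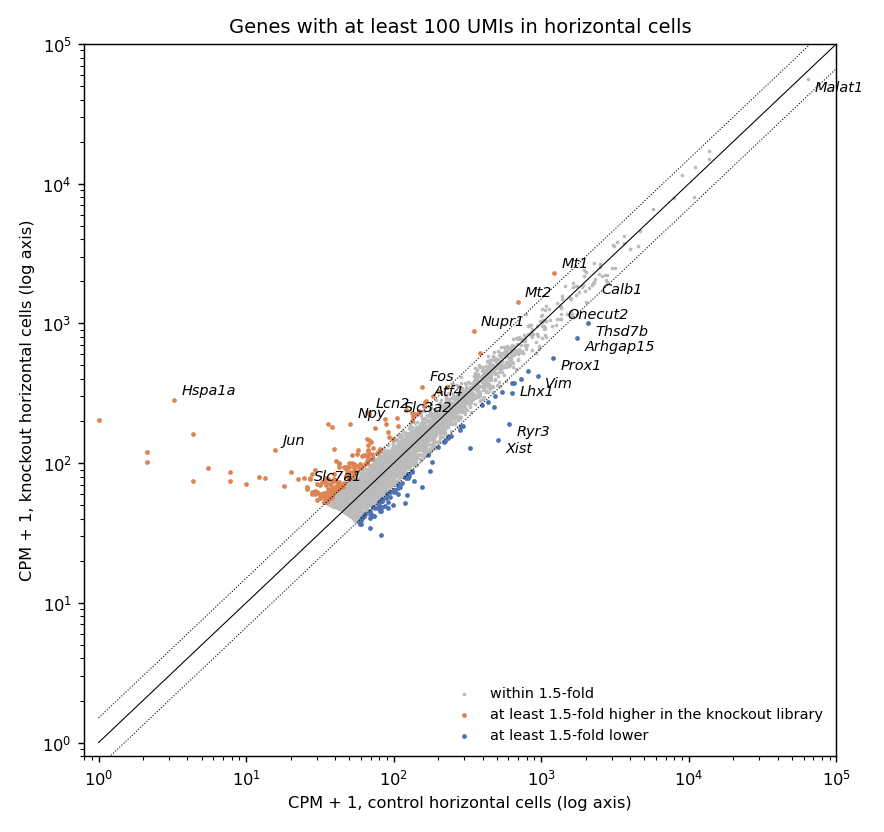
Level of each of 4324 genes (CPM + 1, log axes) in control and knockout horizontal cells, with dotted lines at 1.5-fold and genes beyond them in colour. Mt1, Mt2 and Nupr1 lie above and Prox1, Vim, Thsd7b and Arhgap15 below the dotted lines among well counted genes, while Hspa1a at the left is carried by 1 cell.

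Prox1 was the 1 lower gene among the 5 measured transcription factors of horizontal cell identity that the rule did not use, and 0 were higher. Over all 8 measured factors the median log2 ratio was -0.45, but 3 of them are rule genes, so that median is a description only. Prox1, the homeobox factor needed for horizontal cells to form, stood at 1200 CPM (1129 to 1274) in control and 569 CPM (530 to 610) in knockout members. Its gene lies on chromosome 1 (190118035 to 190170714, minus strand, mm10). The knockout over control ratio was 0.474 (0.432 to 0.520). Per cell, Prox1 had a median of 9.59 UMIs per 10,000 UMIs in control members (3.39 to 24.6) and 5.75 in knockout members (1.35 to 11.6), and 1 of 40 knockout members exceeded the control median. The ranges overlapped, and 18 of 23 control members exceeded the knockout median. In amacrine cells the ratio of Prox1 was 0.748 and in Müller cells 0.833. Prox1os, on the other strand at the same locus, was higher in the knockout library, at 33.9 and 76.9 CPM, and reads of this pair may have been counted for either gene.

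Lhx1, which positions horizontal cells in their layer, stood at 636 CPM (584 to 690) and 374 CPM (342 to 407). The rule used Lhx1, so its ratio of 0.588 is given as a description only. The other rule genes stood at 515 and 377 CPM (Onecut1) and at 1340 and 1323 CPM (Onecut2), so the level of Onecut2 was almost the same. Rorb stood at 1608 and 1161 CPM, Tfap2b at 1084 and 798 CPM and Onecut3 at 262 and 217 CPM, all within 1.5-fold. Pax6, shared with amacrine cells, stood at 508 CPM in both libraries. Foxn4 and Ptf1a, which act in progenitors, had no UMI. The 82 enriched genes as a whole had a median log2 ratio of -0.17, with 61 below 1, 0 higher by 1.5-fold and 9 lower. Over all 4324 genes 4.23% were higher and 2.13% lower, with a median log2 ratio of 0.01. Without the members that lacked Lhx1 the median of the 82 was -0.12 and 7 were lower. Among members with no Xist UMI 3 of the 82 were higher and 13 lower, beside 228 and 124 of all measured genes.

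Vim, the intermediate filament vimentin, best known from glia, stood at 949 and 422 CPM, a ratio of 0.445 (0.400 to 0.495). The median per cell was 7.56 and 3.84 UMIs per 10,000, and 3 of 40 knockout members exceeded the control median. In the other classes Vim was higher in the knockout library, at 27.2 and 73.2 CPM in amacrine cells and 1406 and 1877 CPM in Müller cells. The other lower genes of this size were of varied function. Ryr3, a calcium release channel of the endoplasmic reticulum, stood at 605 and 190 CPM, a ratio of 0.314 (0.270 to 0.365), with 141 of 535 control UMIs in 1 cell and medians of 3.23 and 1.88 UMIs per 10,000. Arhgap15, which turns off Rac, stood at 1755 and 783 CPM, a ratio of 0.446 (0.413 to 0.483). Thsd7b, a thrombospondin-repeat protein, stood at 2064 and 999.5 CPM, and its ratio was 0.484 (0.451 to 0.520). Of the enriched genes, Ndrg1, Slit1, Fam126a, Dcx and Angpt2 were also lower, with ratios between 0.525 (Fam126a) and 0.645 (Dcx).

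Metallothioneins and Nupr1 were higher in the knockout library. Mt1, which binds zinc and copper, stood at 1226 CPM (1154 to 1301) and 2277 CPM (2198 to 2358), a ratio of 1.86 (1.73 to 1.99). Mt2 stood at 693 and 1412 CPM, a ratio of 2.04 (1.86 to 2.23). Members varied widely: Mt1 ranged from 0.639 to 42.9 UMIs per 10,000 in control members (median 8.82) and from 0.485 to 90.8 in knockout members (median 20.1). Nupr1, a stress-induced nuclear protein, stood at 347 and 877 CPM, a ratio of 2.53 (2.23 to 2.87), and 35 of 40 knockout members exceeded the control median. These genes were higher in the other classes too: the ratio of Mt1 was 8.46 in amacrine and 2.18 in Müller cells, and that of Nupr1 was 3.90 and 1.82. Müller cells held 12377 and 27031 CPM of Mt1. Slc1a3 and Gfap, which define Müller and astroglial cells, had no UMI in members of either library, and the 12 Müller markers summed to 643 and 675 CPM there.

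Among 16 measured genes of the unfolded protein and integrated stress responses, 5 were higher and 1 lower. The shares over all 4324 genes were 4.23% and 2.13%. Without the members that lacked Lhx1, 4 of 15 genes of this list were higher and 1 lower. Atf4, the transcription factor at the centre of the integrated stress response, stood at 165 and 278 CPM, a ratio of 1.68 (1.39 to 2.05). Its median was 1.35 UMIs per 10,000 in control and 2.36 in knockout members, and 30 of 40 knockout members exceeded the control median. Slc3a2, the shared heavy chain of amino acid exchangers, stood at 104 and 211 CPM, and Asns, which makes asparagine, had a ratio of 1.65 (1.33 to 2.05). Outside the list, 3 genes that handle amino acids were among the 12 with the largest ratios. That ranking took genes found in at least 25% of members, at a level no lower than in all other kept cells. It used these same ratios, so the 3 genes are a description and add no support to the list. Slc7a1, a transporter of cationic amino acids, stood at 24.9 and 66.7 CPM, Psph, which completes serine synthesis, had a ratio of 2.26 (1.48 to 3.54), and Cars, the tRNA synthetase for cysteine, one of 2.19 (1.38 to 3.61). Cars was lower, at a ratio of 0.767, when members were thinned to equal depth. The chaperones of the endoplasmic reticulum in the list did not move together. Hspa5 stood at 187 and 229 CPM and Calr at 204 and 190 CPM, Dnajb9 was higher (ratio 1.58) and Pdia3 was lower, at 90.5 and 51.5 CPM. The other higher gene was Ddit3, and the median log2 ratio of the list was 0.23. In amacrine cells the ratios of Atf4 and Slc3a2 were 1.10 and 1.18, and the difference between the classes was not tested.

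**Figure D4:**
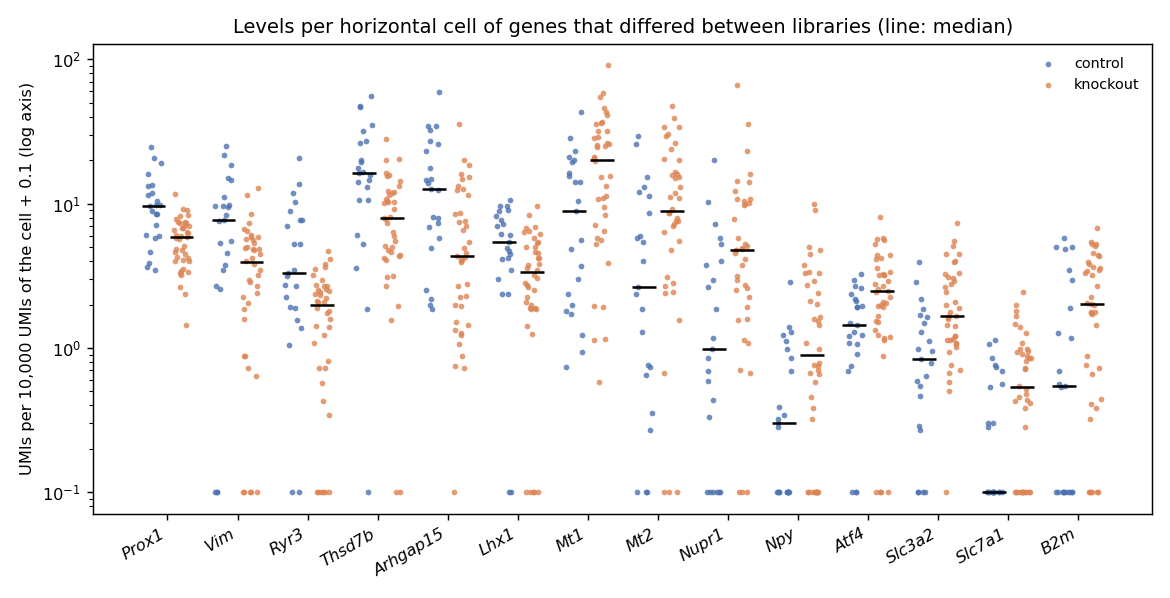
UMIs per 10,000 UMIs of each horizontal cell plus 0.1 (log axis) for 14 genes, with control members in blue, knockout members in orange and a line at each median. The median of Prox1 is 9.59 in control and 5.75 in knockout members and that of Mt1 is 8.82 and 20.1, and the cells of the libraries overlap for every gene shown.

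Npy, which encodes neuropeptide Y, stood at 49.8 CPM (36.2 to 66.8) and 191 CPM (168 to 215), a ratio of 3.83 (2.78 to 5.40). It was found in 13 of 23 control and 30 of 40 knockout members, with medians of 0.200 and 0.789 UMIs per 10,000. In amacrine cells Npy stood at 85.5 and 107 CPM.

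Of 10 measured early response genes, 7 were higher in the knockout library and 0 lower, with a median log2 ratio of 0.77. The shares over all 4324 genes were 4.23% and 2.13%. Fos stood at 155 and 352 CPM, a ratio of 2.27 (1.87 to 2.77), against 1936 and 2468 CPM in amacrine cells and 5575 and 4772 CPM in Müller cells. Atf3, a factor induced by injury, stood at 11.3 and 79.1 CPM, a ratio of 6.99. Jun stood at 14.7 and 123 CPM, with 87 of 170 knockout UMIs in 1 cell, and its ratio of 8.39 became 4.48 without the highest doublet scores. Egr1 stood at 80.3 and 66.7 CPM. Without the highest doublet scores 4 of 8 early response genes were higher, and without the members that lacked Lhx1 6 of 10.

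Of 10 measured genes of the type I interferon list 3 were higher and 0 lower, and of 9 of the interferon gamma and antigen presentation list likewise 3 and 0. The shares over all 4324 genes were 4.23% and 2.13%. Bst2, which tethers enveloped viruses, stood at 41.8 and 93.6 CPM (ratio 2.24, 1.54 to 3.32), and Irf7, the master factor of type I interferon, at 46.4 and 80.5 CPM. Ifit3 stood at 23.7 and 77.6 CPM, with 62 of 107 knockout UMIs in 1 cell. Ifit1 stayed within 1.5-fold, at 178 and 190 CPM. B2m, the invariant chain of MHC class I, stood at 133 and 212 CPM (ratio 1.59, 1.28 to 1.98, and 1.49 without the highest doublet scores), while the class I genes H2-D1 and H2-K1 had ratios of 1.11 and 1.09. The other higher genes of that list were H2-T23 (ratio 1.94) and Psmb10 (1.56). In amacrine cells the ratios of Bst2, Irf7, Ifit3 and Ifit1 were 2.49, 2.00, 2.90 and 2.02. Of the same 10 type I genes 8 were higher in amacrine, 9 in ganglion and 0 in Müller cells. Of the 9 antigen presentation genes these numbers were 6, 9 and 1. Transcripts of LPS receptors were near the detection limit in horizontal cells: Tlr4 had 0 and 3 UMIs, Tlr2 none, and none of 13 genes of LPS sensing reached 100 UMIs. Cd14 had 0 and 32 UMIs, in 6 knockout members. Csf1, a growth factor for macrophages and microglia, stood at 48.6 and 98.6 CPM, a ratio of 2.03 (1.43 to 2.93).

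Some of the highest ratios belonged to single cells. 1 knockout member held 380 of 388 UMIs of Hspa1a and 273 of 280 of Hspa1b, heat-inducible chaperones with 2 and 0 UMIs in the control members. The same member held 80 of 142 UMIs of Hsph1 and 77 of 128 of Dnajb1. Without the members with the highest doublet scores, of which it was one, 0 of 8 measured heat shock genes were higher. Another knockout member held 116 of 311 UMIs of Lcn2, 94 of 140 of Csta2, 85 of 125 of Ccl4 and 469 of 2549 of Fth1, together with 45.1% of all UMIs of 10 neutrophil genes in knockout members. It also was among the highest doublet scores. Lcn2, lipocalin 2, stood at 66.7 and 226 CPM in horizontal cells, and its ratio of 3.38 was under 1.5 without those members. Müller cells held 17976 and 18201 CPM of Lcn2. Cell-to-cell variation was measured as the Fano factor (variance over mean) after thinning each member to 5000 UMIs. Hspa1a, Hspa1b, Fth1, Lcn2, Csta2 and Ccl4 were among the 10 highest of 4103 genes, with 57.2 for Hspa1a and 15.4 for Lcn2, and Malat1, a nuclear RNA, came first at 66.0. The median was 1.10 and the 95th percentile 2.21. Calb1 (3.04) and Slc4a3 (2.82) lay above that percentile and Sept4 (2.17) just below it. The adhesion genes Ntng1, Unc5d and Sdk1 had high ratios from 8 to 13 knockout members, and without the members that lacked Lhx1 0 of 23 adhesion and guidance genes were higher. The number measured fell from 26 to 23, and the ratio of Ntng1, at 10.9 over all members, was still 6.01 in that setting.

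**Figure D5:**
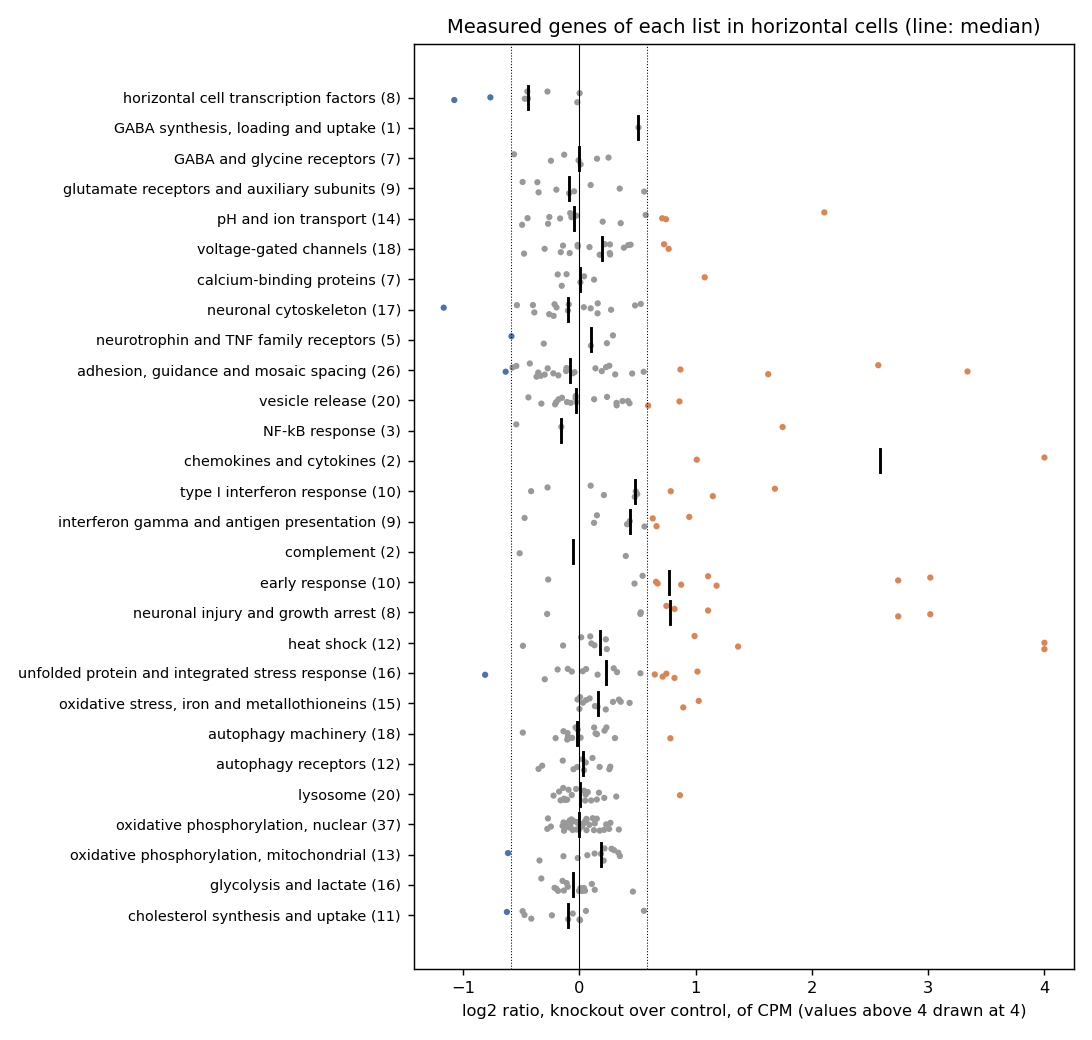
Log2 ratio, knockout over control, of each measured gene in 28 lists (number in parentheses), with a line at the list's median and dotted lines at 1.5-fold (values above 4 drawn at 4). The genes of oxidative phosphorylation, glycolysis and autophagy receptors lie within the dotted lines apart from 1 mitochondrial gene, and those of the early response lie mostly to the right.

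Few autophagy genes passed 1.5-fold, and over all 4324 genes only 6.36% did. Atg5, the deleted gene, stood at 59.9 CPM (53 UMIs) and 42.8 CPM (59 UMIs) in horizontal cells, a ratio of 0.714 (0.484 to 1.05), and the 3' tags do not show whether the floxed part was present. In Müller cells Atg5 stood at 19.0 and 20.9 CPM. Of 18 measured genes of the autophagy machinery 1 was higher, Atg4a, a protease that processes Atg8 proteins, at 66.7 and 115 CPM (ratio 1.73, 1.27 to 2.37). Of 12 autophagy receptors 0 differed, among them Sqstm1 (p62) at 179 and 182 CPM. Of 20 lysosomal genes 1 was higher, Cd63, a membrane protein of late endosomes, at 90.5 and 165 CPM (ratio 1.83, 1.41 to 2.39).

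Of 37 nuclear genes of oxidative phosphorylation 0 differed, with a median log2 ratio of -0.00, and of 16 glycolytic genes 0 differed (median -0.05). Over all 4324 genes 6.36% differed. Of the 13 mitochondrial genes 1 was lower, mt-Nd6 (62.2 and 40.6 CPM), which lies on the other strand of the genome from the rest. The median log2 ratio of the 13 was 0.19, and they summed to 71392 and 83042 CPM, a ratio of 1.16 (1.15 to 1.17). Of these messages mt-Co3 stood at 13693 and 17265 CPM, against 4359 and 4767 CPM in amacrine cells.

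Most genes for channels, calcium binding and release lay within 1.5-fold between the libraries. Over all 4324 genes 4.23% were higher and 2.13% lower, which the counts here should be set against. Snap25, part of the vesicle fusion machinery, stood at 4530 and 3609 CPM and Syt1, a calcium sensor of release, at 1652 and 1948 CPM. Of 20 vesicle release genes 2 were higher, Stx3 (32.8 and 60.2 CPM), a syntaxin of ribbon synapses, and Rims1 (ratio 1.51, 1.21 to 1.89). Of 18 voltage-gated channel genes 2 were higher, the calcium channel genes Cacna1d (37.3 and 62.4 CPM) and Cacnb4 (41.8 and 71.8 CPM), and 0 of 14 without the members that lacked Lhx1. Cacna1h, a low-voltage calcium channel among the 82 enriched genes, stood at 254 and 228 CPM. Ncald, a calcium sensor, was the 1 of 7 calcium-binding genes that was higher, at 38.4 and 82.0 CPM, and 0 of 7 were without those members. Of 14 genes for pH and ion transport 3 were higher, and 1 of 12 without the highest doublet scores. Without the members that lacked Lhx1, 2 of 12 were. Among the 3 were the carbonic anhydrase-related gene Car10, seen in 3 control and 10 knockout members (ratio 4.41, and 2.49 without the highest doublet scores), and the acid-sensing channel gene Asic2 (184 and 302 CPM). Among trophic receptors Ret stood at 205 and 250 CPM, against 8.23 and 11.1 CPM in amacrine cells, and its coreceptor Gfra1 stood at 231 and 154 CPM, a ratio of 0.667 that was beyond 1.5-fold in 6 of 9 settings (highest 0.748).

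The make-up of the libraries also differed. Xist, the RNA of the inactive X chromosome in females, was found in 9 of 23 control members (39.1%) and 7 of 40 knockout members (17.5%). A UMI of a Y-linked gene was held by 16 and 36 members. Both kinds were found in 2 control and 3 knockout members, so these counts do not split the members cleanly by sex. Among members with no Xist UMI (14 control, 33 knockout) the ratios of Prox1 and Vim were 0.440 and 0.369. In that setting 6 of 7 type I interferon genes and 5 of 5 antigen presentation genes were higher. Of all measured genes 228 were higher and 124 lower there, against 183 and 92 over all members. The setting has fewer cells and was chosen after seeing the data. Among the same members Lcn2 had a ratio of 1.24 and 0 of 8 heat shock genes were higher. The 12 rod genes summed to 285 CPM in control and 107 CPM in knockout members. Neutrophil genes summed to 48.6 and 206 CPM (3 of 10 at 0 in the knockout members) and bipolar genes to 225 and 413 CPM. The part of sex and of other cells' RNA in the differences was not tested beyond the values given.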

How the data were processed

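Each library came as a matrix of UMI counts, not normalized, which the authors deposited. Cell Ranger 6.0.0 and mm10 are named in the submitters' processing notes, as is Seurat 5.2.1. No source used here gave the annotation release or the strand of counting. The matrices have 32285 features, and 40 that repeat an earlier symbol gave no gene value.

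Cells with at least 500 genes and under 25% mitochondrial UMIs were kept, which is the filter in the series' text (43669961 and 50676223 UMIs over all barcodes). Amacrine, ganglion and Müller cells were chosen by count rules at the same depth. Members' counts were summed per library, with 1 library per group and hence no test, p-value or SE. A gene was called from 100 UMIs (both libraries summed) and a ratio of at least 1.5-fold (0.5 added to each count). For folds over classes, a class at 0 was set to 3 UMIs. Scrublet (scanpy 1.11.5) called 0 doublets in either library, so the threshold had not worked. Instead the members among the highest 548 control and 174 knockout scores (0 and 5) were left out as an alternative. TMM factors came from edgeR 4.0.16. The calls were also run on simulated counts that held counting error only. Variation between cells or libraries was not in them, so that run cannot show how the calls hold here. Gene positions are from GENCODE M21. Named genes were the rule's genes and given markers, per list the most abundant genes and the largest and smallest ratios, the 15 most enriched genes, the 12 largest and smallest ratios, the 10 largest Fano factors, and Atg5, Slc1a3, Gfap, Lcn2, Xist and Ddx3y. Some genes that this rule names are not reported here. Further names were added after their values were seen. The members and the lists were chosen with earlier results of these data known.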

Additional observations from a re-analysis of the deposited data

Results flagged for a closer look

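Vim moved in opposite directions in 2 classes of cells. Its knockout over control ratio was 0.445 in horizontal cells and 2.69 in amacrine cells, with each interval on its own side of 1. With 1 library per group, the difference between the classes was not tested.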

How the results depend on the processing

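Among 183 genes higher and 92 lower in the knockout library, the counts became 694 and 662 when members were thinned to 5000 UMIs, 456 and 258 with a minimum of 50 UMIs, and 1472 and 917 with a minimum of 10. A mean of per-cell CPM gave 200 lower. List genes, 41 higher and 8 lower, became 67 and 15 at 50 UMIs and 142 and 26 at 10, 24 were higher without the highest doublet scores, and 13 and 37 were lower with per-cell means and with thinning. Control members fell to 14 without Xist. Thinning leaves few UMIs and low minimums admit poorly counted genes. Reversed ratios were Cacnb4 (0.915 with at least 8 UMIs of the 3 factors, 0.890 without the members that lacked Lhx1), Ccl4 (0.539 without the highest doublet scores, 0.714 without Xist), Csta2 (0.719 without the highest doublet scores), Kcnh1 (0.964 without the members that lacked Lhx1), Hspa1a (0.952 without Xist) and Cars (0.767 thinned). The cause was not tested. The alternatives without Lhx1-free members and without Xist were chosen after seeing the data. TMM scaling moved log2 ratios by -0.02. Prox1, Vim, Ryr3, Thsd7b, Arhgap15, Mt1, Mt2, Nupr1, Npy, Slc3a2 and Slc7a1 kept a difference of at least 1.5-fold in all 9 settings. No paired analysis was possible because each group was 1 library. Leaving out a replicate was not possible for the same reason.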
